A study of Mus musculus with 8 samples.

Results

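The NMDA receptor subunit genes were followed in the cortex of tau transgenic mice with and without a mutation in the β1-adrenergic receptor. They were chosen by name: the 6 genes Grin1, Grin2a, Grin2b, Grin2c, Grin2d and Grin3a, out of 54532 genes in the count table, and all 6 were among the 17195 genes with enough counts to be tested. The remaining family gene, Grin3b, had 2 to 14 counts per mouse and was not tested. RNA-seq was done on the cortex of 8 mice of the C57BL/6 strain at 8 months of age, with 1 library per mouse. Every mouse carried the PS19 transgene, a human tau bearing the P301S mutation and driven by the mouse prion protein promoter, so no value here compares mice with and without transgenic tau. The 4 mice labelled PS19 (m677, m668, m665 and m659) had this transgene alone. The 4 mice labelled Adrb1+/m;PS19 (m671, m661, m660 and m658) also carried 1 copy of the Adrb1 A187V knock-in allele, made by CRISPR/Cas9 in the mouse gene. The study's methods name littermates as controls and male mice as the usual sex, but the labels give neither litter nor sex. The comparison asks which cortical transcripts differ when the receptor mutation is added to the tau transgene.

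NMDA receptors are glutamate-gated channels that let calcium into neurons when glutamate and a co-agonist (glycine or D-serine) are bound and the membrane is depolarised. Each receptor holds the obligatory GluN1 subunit, which binds the co-agonist, together with GluN2 subunits, which bind glutamate and set how slowly the channel closes, or GluN3 subunits, which bind glycine. In the forebrain GluN2B is the main partner early in life and GluN2A joins it as synapses mature, while GluN2C is found largely in astrocytes and cerebellar granule neurons and GluN2D largely in inhibitory neurons.

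A link of this family to the study runs through the scaffold PSD-95 and the ends of the coding sequences. GluN2 proteins end in a short motif that binds the PDZ domains of PSD-95. The study examined the binding of PSD-95 to the β1-adrenergic receptor, and did not assay its binding to NMDA receptor subunits. The last 8 codons and the stop codon of the longest coding transcript were read from GENCODE M21 on GRCm38, with the last 4 codons, which encode that motif, in capitals. All 4 genes lie on the minus strand, and the sequences are written 5′ to 3′ as transcribed.
Grin2a, chr16:9577827-9577853: atgcctagtattGAATCTGATGTCtaa
Grin2b, chr6:135732098-135732124: ctttctagtattGAGTCTGATGTCtga
Grin2c, chr11:115249571-115249597: atctccagcctgGAATCAGAAGTGtga
Grin2d, chr7:45832780-45832806: ttctccagcctgGAGTCCGAGGTAtga
In the 12 capital letters, Grin2a and Grin2b shared 11 bases and Grin2c and Grin2d shared 8. Each gene of the first pair shared 8 or 9 with each gene of the second. Different codons can encode the same amino acid, so these counts of bases do not show how alike the protein motifs are. The 12 bases before them shared 11 between Grin2c and Grin2d. The last 12 coding bases of Grin1 shared 3 or 4 bases with those of the GluN2 genes, and those of Grin3a shared 3 to 5. Grin1 and Grin2b each had 2 distinct ends among their coding transcripts with a stop codon. Only the end of the longest was compared, so other ends of these genes were not read.

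Total counts per mouse were 14653222 to 21223754 in PS19 mice and 16865651 to 20802158 in Adrb1+/m;PS19 mice, and the 6 genes together took 21420 to 30081 counts of each library. Adrb1 itself was at 36.8 ± 4.19 and 35.0 ± 3.71 CPM (counts as a share of the library, scaled to 1000000 with the TMM library factors, mean ± SD, n = 4 mice per genotype here and throughout). A point mutation does not show in counts per gene, so this level does not check the genotypes. Beside the tissue label, Slc17a7, the vesicular glutamate transporter of cortical excitatory neurons, was at 1143 and 1005 CPM. Marker lists of neighbouring regions had sums of 988 to 2212 CPM for striatal projection neurons, 225 to 317 CPM for hippocampus and 25.2 to 585 CPM for choroid plexus. The hippocampus sum was largely Wfs1 and Zbtb20, with PS19 means of 112 and 110 CPM. Spink8, Dsp and C1ql2 of that list were low, with PS19 means of 1.06, 0.569 and 3.41 CPM. These lists do not show that the tissue was cortex alone. Over all 17195 genes tested, edgeR's quasi-likelihood test called none at a Benjamini-Hochberg adjusted p under 0.05. At an unadjusted p under 0.05 it called 481, which is 2.80% of the genes. DESeq2's Wald test, run on a wider set of 33611 genes with at least 1 count, called 0 and 555 at these thresholds. The genotypes did not overlap for 348 genes, 2.02% of the 17195.

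Of the 6 subunit genes, 1 had an unadjusted p under 0.05 and none passed adjustment in edgeR or DESeq2. It was Grin2d, higher in Adrb1+/m;PS19 mice, against a background of 1.42% of all genes called in that direction and 1.37% in the other. For none of the 6 were the genotypes fully apart, as they were for 1.02% of all genes with the mutants higher. The median log2 fold change of the 6 was -0.04, beside 0.00046 over all genes tested, and 4 of the 6 were below 0, as were 49.8% of all genes. In whole cortex, a change in the number of cells that carry a subunit and a change in its RNA per cell cannot be told apart.

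Grin1 encodes GluN1, the subunit that every NMDA receptor needs (ENSMUSG00000026959, GRCm38 chromosome 2, 25291181 to 25319187, minus strand, 21 exons in its longest coding transcript). In PS19 mice m677, m668, m665 and m659 it was at 371, 382, 372 and 382 CPM. In Adrb1+/m;PS19 mice m671, m661, m660 and m658 it was at 390.4, 371, 344 and 361 CPM. The PS19 mice were close together, while the Adrb1+/m;PS19 mice held both the highest and the lowest of the 8. The means were 377 ± 6.30 and 367 ± 19.3 CPM, and the log2 fold change of Adrb1+/m;PS19 over PS19 was -0.04 (SE 0.05, 95% interval -0.14 to 0.06), with a Benjamini-Hochberg adjusted p of 0.9996 in edgeR's quasi-likelihood test. The antisense gene Grin1os shares 1307 exon bases with Grin1 and had 124 to 206 counts per mouse, against at least 5539 for Grin1. Whether counting used strand is not given in the sources used here, so the reads of both genes cannot be told apart in the shared stretch.

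Grin2b encodes GluN2B, and had the most counts of the family (ENSMUSG00000030209, chromosome 6, 135713233 to 136173511). It was at 625, 784, 691 and 679 CPM in PS19 mice, in the same order of mice as above. In Adrb1+/m;PS19 mice it was at 627, 737, 632 and 669 CPM. The genotypes covered nearly the same span, with m668 the highest mouse and m677 the lowest, both of them PS19. The means were 695 ± 66.5 and 666 ± 50.8 CPM, with a log2 fold change of -0.06 (SE 0.07, 95% interval -0.21 to 0.09, Benjamini-Hochberg adjusted p = 0.9996, edgeR's quasi-likelihood test). Without m668 this value was 0.0028, so the lower mean of the mutants rested on that mouse.

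Grin2a encodes GluN2A, the GluN2 subunit of more mature synapses (ENSMUSG00000059003, chromosome 16, 9567898 to 9995560). Its levels were 185, 193, 218 and 201 CPM in PS19 mice. They were 191, 209.7, 181 and 168 CPM in Adrb1+/m;PS19 mice. The genotypes overlapped, with m665 of the PS19 mice highest and m658 of the Adrb1+/m;PS19 mice lowest. Means of 199 ± 14.1 and 187.4 ± 17.4 CPM gave a log2 fold change of -0.09 (SE 0.07, 95% interval -0.24 to 0.06, Benjamini-Hochberg adjusted p = 0.9996, edgeR's quasi-likelihood test).

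Grin2c encodes GluN2C (ENSMUSG00000020734, chromosome 11, 115249169 to 115267243). It was at 64.4, 70.1, 62.4 and 74.3 CPM in PS19 mice and at 68.3, 56.9, 68.9 and 68.1 CPM in Adrb1+/m;PS19 mice. Among the mutants, m661 lay apart below the other 3. The means were 67.8 ± 5.43 and 65.6 ± 5.75 CPM, and the log2 fold change was -0.05 (SE 0.08, 95% interval -0.21 to 0.11, Benjamini-Hochberg adjusted p = 0.9996, edgeR's quasi-likelihood test). Without m661 it was 0.01. The astrocyte marker list did not separate the genotypes either, with none of its 10 genes at an unadjusted p under 0.05 in edgeR and sums of 5281 to 6342 CPM in PS19 and 5328 to 6399 CPM in Adrb1+/m;PS19 mice.

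Grin2d encodes GluN2D, whose receptors close slowly and are only weakly blocked by magnesium (ENSMUSG00000002771, chromosome 7, 45831883 to 45878378). Its levels were 19.8, 17.9, 18.6 and 19.6 CPM in PS19 mice, from 324, 260, 395 and 326 counts. In Adrb1+/m;PS19 mice they were 23.9, 22.6, 24.3 and 19.2 CPM, from 399, 471, 434 and 340 counts. All 4 mutants were above the PS19 mean and 3 of them above every PS19 mouse, while m658 lay inside the PS19 range. The means were 19.0 ± 0.885 and 22.5 ± 2.30 CPM, a difference of 18.3% (95% interval 3.61 to 35.1%) or a log2 fold change of 0.24 (SE 0.09). The unadjusted p was 0.0168 and the Benjamini-Hochberg adjusted p 0.9996 in edgeR's quasi-likelihood test, so the difference did not pass correction over all genes. An exact 2-sided permutation test of log2 CPM gave p = 0.0857, where the smallest p that 4 against 4 mice allows is 0.0286. The edgeR call was lost without m660 (log2 fold change 0.20, unadjusted p = 0.0569). The antisense gene Gm45441 shares 643 exon bases with Grin2d, and had 18 to 35 counts per mouse. Its log2 fold change of -0.26 (SE 0.26) was about the size of its SE, so its direction is not settled. As for Grin1, reads in the shared stretch cannot be told apart, because the strand setting is not given.

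Marker genes of other cells were read beside Grin2d. Of the 11 interneuron markers, Gad2 and Slc32a1, the GABA-synthesising enzyme and the vesicular GABA transporter, were higher in Adrb1+/m;PS19 mice by 0.24 (SE 0.07) and 0.18 (SE 0.07) on the log2 scale at an unadjusted p under 0.05. Npy and Vip were lower at that threshold, and the other 7, among them Gad1, Pvalb and Sst, did not pass it. Summed, the list covered 1455 to 1522 CPM in PS19 and 1452 to 1566 CPM in Adrb1+/m;PS19 mice. All 7 markers of basal forebrain cholinergic neurons were higher at an unadjusted p under 0.05, with sums of 17.1 to 32.4 CPM against 34.7 to 48.8 CPM that did not overlap. For the 10 markers of striatal projection neurons all fold changes were above 0 and 1 passed that threshold, with sums of 988 to 1972 CPM against 1032 to 2212 CPM. Over all genes, 1.42% were called higher, 1.37% were called lower, and 1.02% were fully apart with the mutants higher. Every marker of these lists had a Benjamini-Hochberg adjusted p of 0.9996 in edgeR's quasi-likelihood test. The lists were chosen with earlier results of these data known, so their calls are not independent evidence. By mouse, m671 had the highest striatal sum, the highest Slc32a1 and the second highest Grin2d of all 8 mice. In m658, Gad2 and the cholinergic sum were the highest of all 8 mice and Grin2d the lowest of the mutants. In m668, the striatal sum was the second highest and Grin2d the lowest of all. Without m668 and m671, the mouse of each genotype with the highest striatal sum, the log2 fold change of Grin2d was 0.19 (unadjusted p = 0.0992 in edgeR's quasi-likelihood test). These were also the PS19 mouse with the lowest Grin2d and the mutant with the second highest, so this fit does not single out the striatal markers. The part of these markers in the Grin2d difference was not tested.

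**Figure D1:**
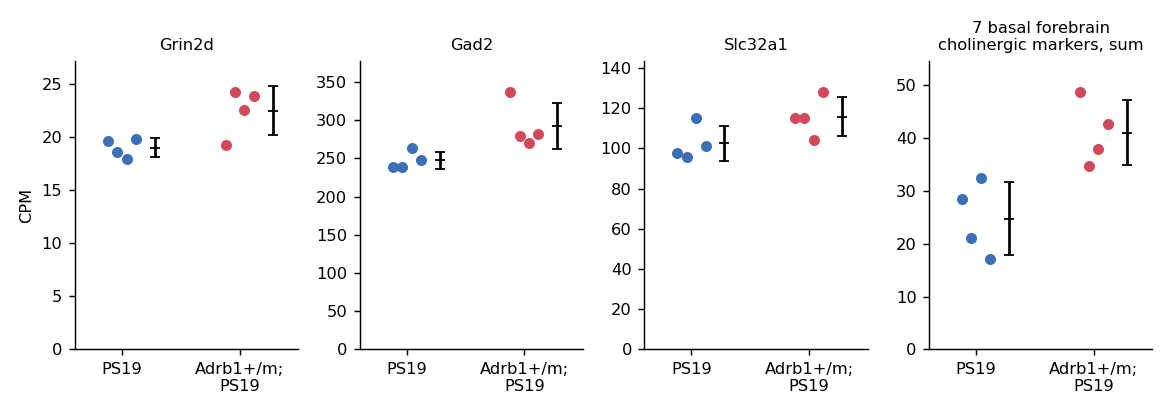
Level in each mouse by genotype (x axes) of Grin2d, Gad2 and Slc32a1 and of the summed 7 basal forebrain cholinergic markers (y axes, CPM from 0), 1 point per mouse, with the mean and SD of each genotype beside the points. Gad2 and the cholinergic sum are fully apart between genotypes, while Grin2d and Slc32a1 overlap. Over all genes tested, 1.02% were fully apart with the mutants higher. Of the 11 interneuron markers, only Gad2 and Slc32a1 were called higher, while Npy and Vip, not drawn, were called lower.

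Grin3a encodes GluN3A, a glycine-binding subunit that lowers the calcium flow of receptors that contain it (ENSMUSG00000039579, chromosome 4, 49661611 to 49845744). It was at 47.2, 40.5, 37.8 and 54.1 CPM in PS19 mice and at 45.2, 43.3, 48.4 and 50.2 CPM in Adrb1+/m;PS19 mice. All 4 mutants lay inside the PS19 range. The means were 44.9 ± 7.30 and 46.8 ± 3.10 CPM, with a log2 fold change of 0.06 (SE 0.10, 95% interval -0.15 to 0.27, Benjamini-Hochberg adjusted p = 0.9996, edgeR's quasi-likelihood test). Without m665, the lowest mouse, it was -0.02.

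The intervals show what 4 mice per genotype could resolve. For Grin1, the steadiest of the family, differences beyond -9.44% and 4.59% lay outside the 95% interval, and for Grin3a, the least steady of the tested members, those beyond -10.03% and 20.8%. The fitted spread between mice was 6.17% for Grin1, 7.89% for Grin2a, 8.08% for Grin2b, 7.90% for Grin2c, 8.54% for Grin2d and 9.99% for Grin3a, beside a median of 7.71% over the 10438 tested genes with a mean of at least 10 CPM. Counting error was smaller than this fitted spread in every member, from 0.911% for Grin2b to 5.21% for Grin2d, the gene with the fewest counts. Among the 4 PS19 mice alone, the observed SD of Grin2d was 4.65% of its mean, below that counting error.

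**Figure D2:**
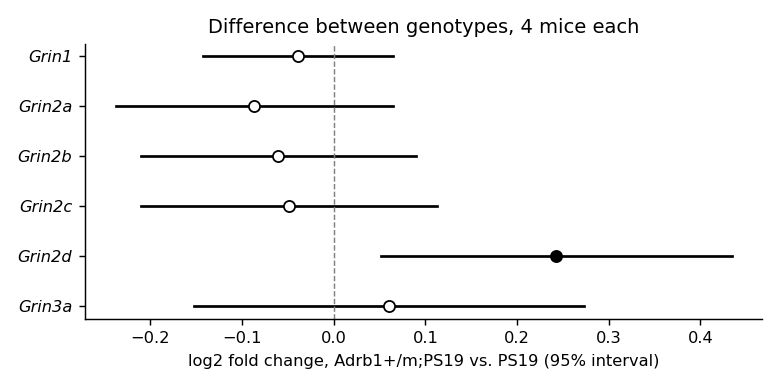
Log2 fold change of Adrb1+/m;PS19 over PS19 (x axis) for each subunit gene (y axis), with bars for the 95% interval of edgeR's quasi-likelihood test and filled points for an unadjusted p under 0.05. The interval of Grin2d, from 0.05 to 0.43, lies above 0, and the other 5 intervals include 0.

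Levels between genes were set side by side per kilobase of the gene length in the count table. The order over the 8 mice was Grin1, Grin2b, Grin2c, Grin2a, Grin3a and Grin2d. Grin1 was at 38.3 ± 1.48 CPM per kilobase (SD over 8 mice) and Grin2b at 27.4 ± 2.29, and their ranges did not overlap. Grin2c followed at 13.2 ± 1.06 and Grin2a at 10.8 ± 0.888. These neighbours overlapped in range, although Grin2c was above Grin2a in 7 of 8 mice. Grin3a at 3.73 ± 0.431 and Grin2d at 3.12 ± 0.371 CPM per kilobase also overlapped, with Grin3a above in 8 of 8 mice. The scale bears on this order because the transcripts differ in their untranslated parts: coding bases make up 18.5% of the longest coding transcript of Grin2b and 75.9% of that of Grin2c. With the length of the longest coding transcript in place of the gene length, the 6 genes kept their ranks, but Grin1 stood 3.07 times above Grin2b instead of 1.40 times and Grin2c 1.03 times above Grin2a instead of 1.23 times. Without any length, in CPM, Grin2b passed Grin1 and Grin2a passed Grin2c.

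**Figure D3:**
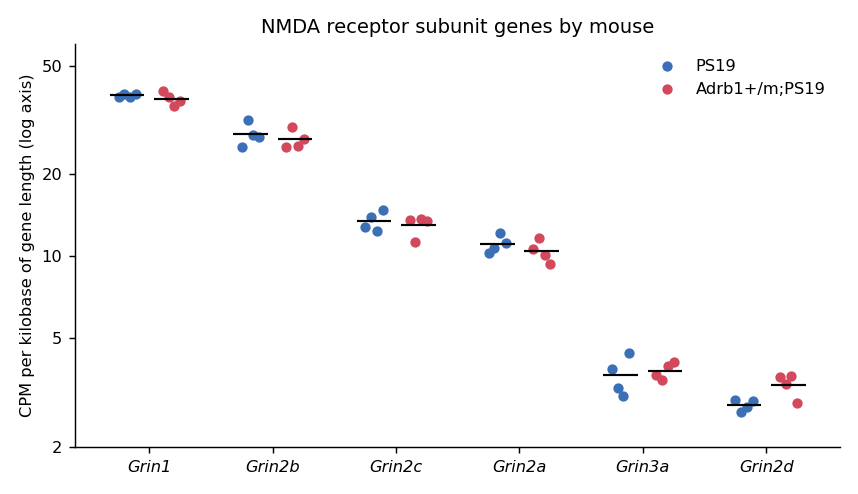
Level of each subunit gene (y axis, CPM per kilobase of gene length, log axis) in the 4 PS19 and the 4 Adrb1+/m;PS19 mice, 1 point per mouse, with a line at the mean of each genotype and genes ordered by their mean over 8 mice (x axis). The genotypes overlap for all 6 genes, and for Grin2d 3 of the 4 Adrb1+/m;PS19 mice lie above every PS19 mouse.

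Among the 4 GluN2 genes, Grin2b held the largest share in both genotypes. On the per-kilobase scale Grin2b made up 50.4 ± 2.24% of their sum in PS19 and 49.9 ± 2.51% in Adrb1+/m;PS19 mice. Grin2c took 24.3 ± 1.65% and 24.3 ± 2.77%, and Grin2a 20.1 ± 1.55% and 19.5 ± 1.31%. The shares depend on the length used: in CPM, with no length, Grin2a was at 193 and Grin2c at 66.7 over the 8 mice. The smallest share belonged to Grin2d, at 5.18 ± 0.514% and 6.30 ± 0.666%. By mouse, the Grin2d share was 5.82, 4.57, 5.08 and 5.25% in PS19 mice and 6.78, 6.04, 6.91 and 5.48% in Adrb1+/m;PS19 mice, so that only m658 of the mutants lay inside the PS19 range. The sum of the 4 GluN2 genes was 1.43 ± 0.0643 times Grin1 in PS19 and 1.42 ± 0.0757 times in Adrb1+/m;PS19 mice, again per kilobase of gene length. The direction of this ratio depended on the length used: over the 8 mice it was 1.42 with the gene length, but 0.678 ± 0.0305 with the length of the longest coding transcript, where Grin1 exceeded the GluN2 sum.

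**Figure D4:**
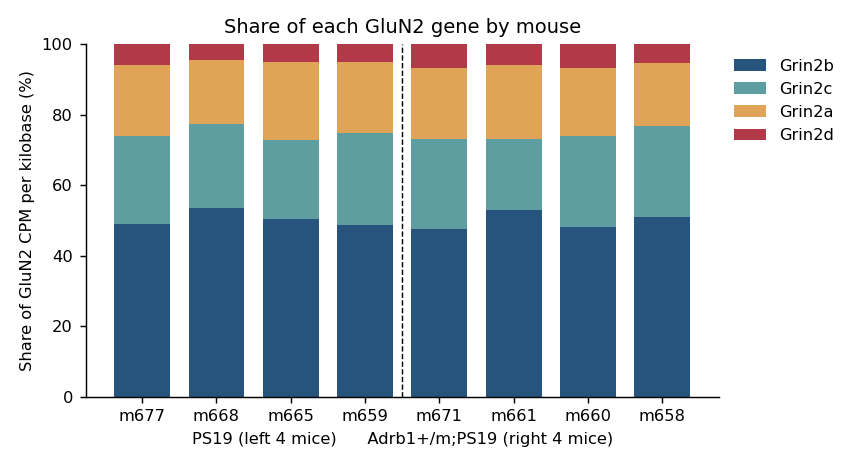
Share of each GluN2 gene in the sum of the 4 (y axis, percent of CPM per kilobase) in each of the 8 mice (x axis), stacked. Grin2b is the largest share in every mouse, and Grin2d the smallest, from 4.57% in m668 to 6.91% in m660.

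The balance of GluN2A to GluN2B is the measure by which cortical synapses are usually placed between a juvenile and an adult state. The values here are RNA in whole cortex and do not place synapses on that scale. The ratio of Grin2a to Grin2b per kilobase was 0.410, 0.340, 0.437 and 0.409 in PS19 mice and 0.421, 0.394, 0.396 and 0.349 in Adrb1+/m;PS19 mice. Grin2b was thus the higher gene in all 8 mice, and the PS19 mice held both extremes of the ratio. The mean log2 ratios were -1.33 ± 0.155 and -1.36 ± 0.114, and their difference of -0.03 (SE 0.10) was smaller than either SD (exact permutation p = 0.657).

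Across the 8 mice the members did not move as a block. The 15 pairs of members had Pearson's r from -0.58 (Grin2a with Grin3a, exact permutation p = 0.134) to 0.53 (Grin2c with Grin3a, exact permutation p = 0.171), and none of them reached an exact permutation p under 0.05. A further 6 relations set a member against the marker list of the cells thought to carry it, making 21 in all. Grin2a followed the score of the excitatory neuron list with r = 0.86 (exact permutation p = 0.00563, Benjamini-Hochberg adjusted 0.118) and Spearman's rho = 0.86 (exact permutation p = 0.0107, adjusted 0.225), so it did not pass adjustment over the 21. Without m665 and m658, the mice farthest from the median of Grin2a, r was 0.74 (exact permutation p = 0.1), and with each genotype centred on its own mean r was 0.84 (exact permutation p = 0.0122). The sums of the excitatory list overlapped between genotypes, at 1781 to 2065 CPM in PS19 and 1690 to 1866 CPM in Adrb1+/m;PS19 mice. Of its 11 genes, 5 had an unadjusted p under 0.05 in edgeR, and none an adjusted p under 0.05. Slc17a7, Neurod6 and Tbr1 were lower, and Cux1 and Foxp2 higher. Over all genes tested, 2.80% were called, 1.37% lower and 1.42% higher. Like the other marker lists, this list was chosen with earlier results of these data known. Grin2b and Grin1 followed the score of the excitatory list with r = 0.61 (exact permutation p = 0.112) and r = 0.42 (exact permutation p = 0.311). Grin2d and Grin3a had r = 0.34 (exact permutation p = 0.396) and r = -0.21 (exact permutation p = 0.617) with the interneuron list, and Grin2c had r = 0.60 (exact permutation p = 0.114) with the astrocyte list, which fell away to -0.0017 without m665 and m661.

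**Figure D5:**
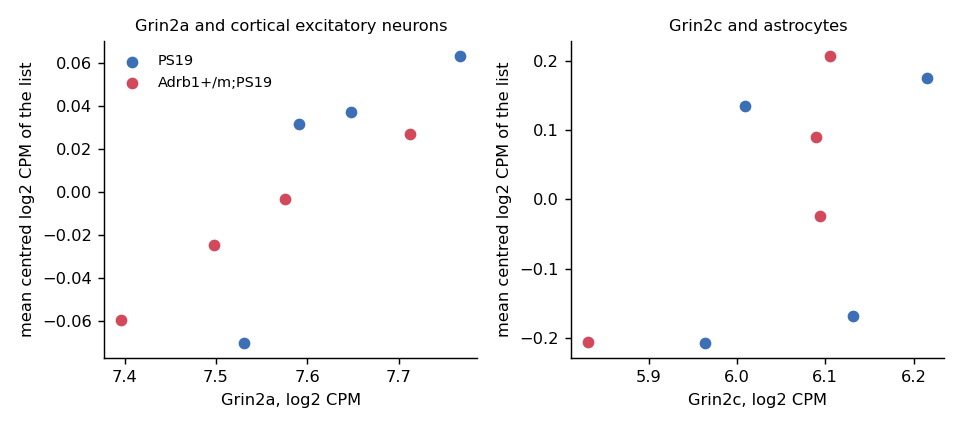
Log2 CPM of Grin2a against the score of the excitatory neuron list and of Grin2c against that of the astrocyte list (x axes the gene, y axes the mean log2 CPM of the list relative to its mean over 8 mice), 1 point per mouse, coloured by genotype. Grin2a and its list fall closer to a line (r = 0.86) than Grin2c and its list (r = 0.60), where the lowest mouse, m661, lies far to the left.

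The genes whose levels followed each member most closely were listed as a description, over 8 mice with 1 cortical library each and among 11653 protein-coding genes with a mean of at least 5 CPM. For Grin1 they were Palm, Rps19 and Impdh1 (r of 0.96 to 0.98), and for Grin2a they were Golga7b, Creg2 and Atg13 (0.96 to 0.98). Grin2b was followed by Cdk14, by Gria3, which encodes an AMPA receptor subunit, and by Napb, at r of 0.95 to 0.96. For Grin2c they were Chst11, Lrrc3 and Ak4 (0.95 to 0.99), for Grin2d Tcf19, Wdr70 and Gtf2ird2 (0.97 to 0.98), and for Grin3a the glycine receptor subunit gene Glra2, then Gaa and Kdm8 (0.96 to 0.98). With so many genes and 8 mice, values of this size are found for every member: between 15 genes for Grin2d and 58 for Grin3a had r of at least 0.9.

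The proteins that feed, hold and modify NMDA receptors were read from lists of 82 further genes, of which 77 were tested. In edgeR, 3 of the 77 (3.90%) had an unadjusted p under 0.05, close to the 2.80% of all genes, and none an adjusted p under 0.05. The genotypes overlapped for all 77, and their median log2 fold change was 0.0004. The list of glutamate and co-agonist supply had none called among 13 tested, with fold changes from -0.09 to 0.39 on the log2 scale, and Srr, which makes D-serine, was at 55.7 ± 4.54 and 55.8 ± 2.06 CPM. The 24 kinases, phosphatases and anchors also had none called. Among them Camk2a, the kinase that binds GluN2B after calcium entry, was at 2679 ± 92.9 and 2585 ± 121 CPM (log2 fold change -0.05, SE 0.04), and Fyn, which phosphorylates GluN2B and binds tau, at 124 ± 8.77 and 123 ± 2.77 CPM. In both lists DESeq2 and limma-voom also called none. The 15 calcium effectors had none called in edgeR and 1 in each of DESeq2 and limma-voom, Nsmf, at a log2 fold change of -0.10 in edgeR.

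Of the 15 scaffold and trafficking genes, 1 was called, where 2.80% of all genes tested were. Dlg4, which encodes PSD-95, the partner of the GluN2 tails printed above, was at 720.3 ± 43.4 and 709 ± 29.9 CPM, with a log2 fold change of -0.02 (SE 0.05, 95% interval -0.13 to 0.09). The called gene was Gipc1, whose PDZ protein binds the GluN2B tail and also the tail of the β1-adrenergic receptor. It was at 59.3, 60.4, 53.7 and 59.5 CPM in PS19 mice and at 55.0, 52.8, 48.6 and 49.5 CPM in Adrb1+/m;PS19 mice. The overlap came from m665 alone among the PS19 mice. Gipc1 was lower by a log2 fold change of -0.18 (SE 0.06) at an unadjusted p of 0.0139 in edgeR's quasi-likelihood test (Benjamini-Hochberg adjusted p = 0.9996). It was called in every leave-one-out fit, but these fits share most of their mice. The list was chosen with earlier results of these data known, so this call is not independent evidence.

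The 10 cell surface modulators held the other pair of calls, where 2.80% of all genes tested were called. This list too was chosen with earlier results of these data known, so neither call is independent evidence. Vldlr, a reelin receptor, was at 88.5, 103.5, 92.9 and 84.0 CPM in PS19 and at 98.1, 104, 100.6 and 111 CPM in Adrb1+/m;PS19 mice, with only m668 of the PS19 mice within the mutant range. Its log2 fold change was 0.17 (SE 0.07), with an unadjusted p of 0.0281 and a Benjamini-Hochberg adjusted p of 0.9996 in edgeR's quasi-likelihood test. Ephb2, a receptor tyrosine kinase that binds GluN1 at synapses, was at 21.1, 15.3, 23.1 and 20.4 CPM in PS19 and at 16.9, 18.5, 16.1 and 13.5 CPM in Adrb1+/m;PS19 mice. Here too m668 was the PS19 mouse among the mutants, and the log2 fold change was -0.30 (SE 0.13, unadjusted p = 0.0338, Benjamini-Hochberg adjusted p = 0.9996, edgeR's quasi-likelihood test). Ephb2 was among the genes the study displayed after selecting them on these same samples, so its call is not independent evidence. The call of Vldlr was lost when m677, m659 or m658 was left out, and that of Ephb2 when m677, m665, m659, m660 or m658 was.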

How the data were processed

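Total RNA from the cortex of 8 mice was sequenced as paired-end libraries. Per the labels and the study's methods, the authors aligned reads to GRCm38 with HISAT2 2.0.5, counted them per gene with featureCounts 1.5.0-p3 and deposited raw counts without normalization. Strand and multiple-mapping settings are not given in the sources used here. The gene lengths and positions in the table equalled those of GENCODE M21 for all members.

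From these counts, genes were kept with filterByExpr, scaled with TMM factors and compared by genotype, without covariates, by the 2-sided quasi-likelihood test of edgeR 4.0.16 in R 4.3.3. Adjusted p-values follow Benjamini-Hochberg over the 17195 genes. SE is the size of the log2 fold change divided by the square root of F. An unadjusted p under 0.05, the selection used in the study, defined calls. Log2 CPM used a prior count of 2. Exact permutation tests used scipy 1.17.1. The procedure was tested on simulated data.

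The members and gene lists were chosen with earlier results of these data known. Named genes were the members, partner genes with a call, Dlg4, Camk2a, Fyn, Srr and Grin3b, and for each member the 3 genes with the highest r. Nsmf was named after its values were seen, as were the marker genes. Alternatives were DESeq2 1.42.0, limma-voom 3.58.1, DESeq2 size factors, other filters and each mouse left out. Added after seeing the data were 1 surrogate variable (sva 3.50.0), another length and the removal of m668 and m671.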

Additional observations from a re-analysis of the deposited data

Results flagged for a closer look

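In 38 groups of 4 mice, the gap between the highest or lowest mouse and its nearest neighbour was set against the range of the group, and 5 groups exceeded Dixon's 95% critical value, where chance gives about 1 in 20. Among the members, Grin2c in Adrb1+/m;PS19 mice had m661 at 56.9 CPM below the other 3 at 68.1 to 68.9 CPM, a gap of 0.935 of the range. The other 4 were marker sums of other tissues and cells. The thalamus list in PS19 mice had m668 at 145 CPM, with a gap of 0.934 of the range. The cerebellar granule neuron list in PS19 mice had m677 at 77.4 CPM, with a gap of 0.876. For choroid plexus in Adrb1+/m;PS19 mice, m658 was at 585 CPM, with a gap of 0.916. For endothelial cells in PS19 mice, m659 was at 169 CPM, with a gap of 0.898.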

How the results depend on the processing

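The log2 fold change of Grin2d ranged from 0.20 to 0.31 when each mouse was left out, with a call lost at 0.20 (unadjusted p = 0.0569) without m660, and it was 0.19 (unadjusted p = 0.0992) without m668 and m671. Under the 7 other settings it was 0.24 (unadjusted p = 0.0153 to 0.0211). Leave-one-out ranges were -0.07 to -0.01 for Grin1, -0.15 to -0.04 for Grin2a, -0.11 to 0.0028 for Grin2b, -0.087 to 0.013 for Grin2c, and -0.017 to 0.16 for Grin3a. Grin2b turned to 0.0028 without m668 and 0.031 without m668 and m671, Grin2c to 0.013 without m661, and Grin3a to -0.017 without m665. The log2 ratio of Grin2a to Grin2b differed by -0.10 to 0.023, turning to 0.015 without m665 and to 0.023 without m658. With no filter, 1366 genes were called against 481 and 66 had an adjusted p under 0.05, as did 1 without m661 and 2 without m658, but no member did in any of the 17 fits (smallest adjusted p = 0.897, in edgeR with no filter). Unfiltered, the partner lists had 3 higher and 4 lower against 1 and 2. They had 0 to 2 higher and 1 to 3 lower when each mouse was left out, and 2 higher without m668 and m671. In CPM 4 genes took another rank. The GluN2 sum was 1.42 times Grin1 per kilobase of gene length, 0.678 times with coding transcript length and 2.59 times in CPM. Relations turned in sign with genotypes centred for Grin1 with Grin2d (0.037), Grin2a with Grin2d (0.31) and Grin2c with Grin2d (0.011), and without the pair of farthest mice for Grin2b with Grin2c (0.026), Grin2c with astrocytes (-0.0017) and Grin3a with interneurons (0.33). The count of relations with p under 0.05 went from 1 to 0 without the farthest pair, which was not the same pair in every relation. Leaving it out means fewer mice and a narrower range of the gene, so this fall does not show dependence on particular mice. The cause was not tested. Depth limits Grin2d most. No paired analysis was possible because no litter is named and each mouse ID in the labels is unshared. Replicate numbers here follow accession order alone.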
